A study of Mus musculus with 8 samples.

Results

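The Bcl-2 family genes described here are Bok and its closest functional relatives in the dorsal dentate gyrus of the mouse hippocampus. Bok was chosen by its lower values in Cav3.1 KO than in WT on these arrays, so its difference is a description and not a test. The other genes were chosen as relatives of Bok by name. The list held 10 genes, Bok, Bax, Bak1, Bid, Bad, Bcl2l11, Bcl2, Bcl2l1, Bcl2l2 and Mcl1. Probes were found by gene symbol in the annotation of the array, and 9 of the 10 genes had at least 1 probe, among 19321 genes with a symbol. No probe of the annotation carried the symbol Bax, so Bax was not analysed here. For Bcl2 and Bad, with 2 probes each, the brighter probe was kept.

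Bcl-2 proteins decide whether the outer mitochondrial membrane is opened in the intrinsic pathway of apoptosis. The effectors BAX and BAK form the pores through which cytochrome c leaves the mitochondrion, and BOK is a related effector-like protein that can act without them, is found largely at the endoplasmic reticulum, binds inositol trisphosphate receptors and is removed by proteasomal degradation. BH3-only proteins such as BID, BAD and BIM relay death signals, while BCL-2, BCL-XL, BCL-W and MCL-1 restrain the effectors. In the dentate gyrus this machinery is known for removing many of the newborn granule neurons.

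RNA came from dorsal dentate gyrus of male C57BL/6J mice aged 8 to 12 weeks. The WT group and the Cav3.1 KO group, which lacks the T-type calcium channel encoded by Cacna1g, had 4 single-colour arrays each. The labels name no conditional allele, no Cre driver and no treatment, and they do not say that each array came from its own animal. The p-values therefore rest on a spread among arrays that could be technical. In bulk tissue, fewer cells of a type and less RNA per cell cannot be told apart. Values below are quantile-normalised log2 intensities, a difference is Cav3.1 KO minus WT, and errors of means are SD over 4 arrays. Because 50 was added to each intensity before the logarithm, differences of dim probes are understated.

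Between 85.4% and 93.0% of probes lay above blank spots on each array. The Cacna1g probe gave 6.54 ± 0.0814 in WT and 6.46 ± 0.0716 in Cav3.1 KO, and the groups overlapped (difference -0.08, SE 0.0508, limma adjusted p 0.816). Where this probe lies with respect to the deletion is unknown here, so it checks no genotype. The file headers give lines between scan gains, and their slopes split the arrays unevenly. WT replicates 1, 2 and 4 and Cav3.1 KO replicate 1 had slopes of 0.244 to 0.247 from the first to the third gain, and WT replicate 3 and Cav3.1 KO replicates 2, 3 and 4 had 0.235 to 0.236. Over all 21150 probes tested, 61 (0.288%) passed an adjusted p of 0.05 and 19 (0.0898%) passed and were lower in Cav3.1 KO. Before adjustment 8.1% had a p under 0.05, and 4.95% had groups that did not overlap.

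Of the 9 members measured, all 9 passed the detection filter, Bcl2l11 on 5 of 8 arrays and the others on all 8. Bok was lower in Cav3.1 KO and was the 1 member past the threshold, and 0 members were past it with higher values. Since Bok was picked for this contrast, nothing is read from that 1 call against the background of 0.288%. Of the other 8 members, 0 passed by limma and 1, Bid, had an unadjusted p under 0.05, where 8.1% of all probes did. Among those 8, 5 were higher and 3 lower, with differences between -0.04 and 0.14 and a median of 0.0097, next to -0.0008 over all probes. The anti-apoptotic members had a median difference of 0.05 (4 genes), the BH3-only members one of 0.01 (3 genes), and the effectors were Bok and Bak1 alone.

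**Figure D1:**
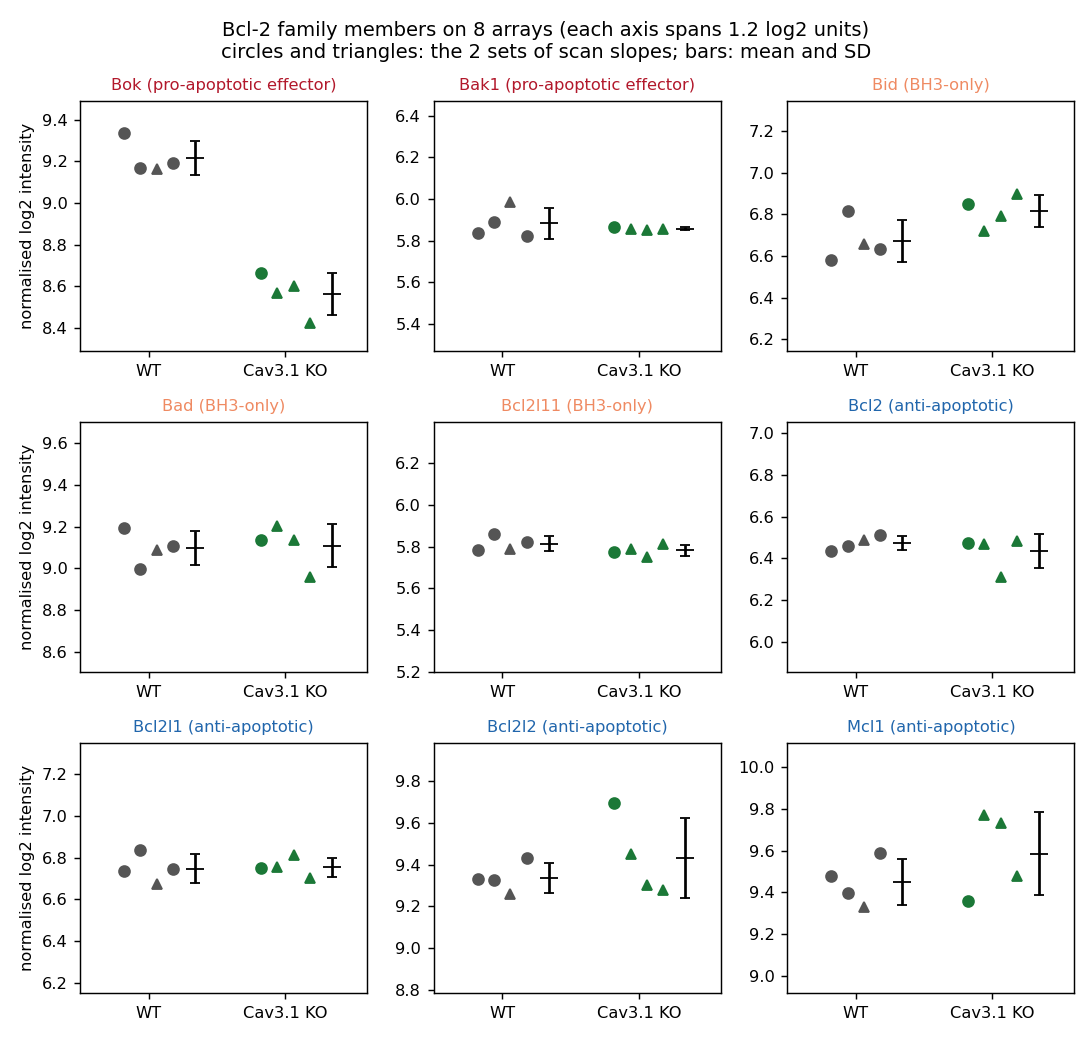
Normalised log2 intensity of the 9 measured Bcl-2 family members on 4 WT arrays (grey) and 4 Cav3.1 KO arrays (green), in replicate order from left to right, with the mean and SD beside each group. Circles are arrays with scan slopes of 0.244 to 0.247 and triangles those with 0.235 to 0.236. Bok is the 1 gene whose groups do not overlap.

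Bok read 9.34, 9.17, 9.17 and 9.19 on WT replicates 1 to 4 and 8.66, 8.57, 8.60 and 8.42 on Cav3.1 KO replicates 1 to 4. All 4 Cav3.1 KO arrays lay below all 4 WT arrays, and the lowest WT and the highest Cav3.1 KO value were 0.504 apart. The means were 9.22 ± 0.0815 in WT and 8.56 ± 0.101 in Cav3.1 KO (SD, n = 4). The difference of -0.65 (SE 0.0594, 95% interval -0.79 to -0.52) put Cav3.1 KO at 0.637 of the WT level. The probe was well above background, with WT spots at 533.5 to 657.4 intensity units and Cav3.1 KO spots at 342.4 to 405.6, where mean blank spots read 53.0 to 63.4. After plain subtraction of the blank mean, the Cav3.1 KO mean was 56.8% of the WT mean (318 against 559.8 intensity units). In the authors' deposited table of scaled intensities, Bok ranged from 324.4 to 419.23 over the WT arrays and from 177.9 to 223.5 over the Cav3.1 KO arrays.

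Where the scan slopes move with genotype, Bok was compared within each set. Among arrays with slopes of 0.244 to 0.247, the 3 WT arrays had 9.17 to 9.34 and Cav3.1 KO replicate 1 had 8.66, a difference of -0.57. Among arrays with slopes of 0.235 to 0.236, WT replicate 3 had 9.17 and the 3 Cav3.1 KO arrays 8.42 to 8.60, a difference of -0.63. With the scan set as a block the difference was -0.60 (SE 0.0628), and over the whole array 23 probes were called where 61 were without the block. Leaving out any 1 array gave differences from -0.68 to -0.61. Since Bok was chosen on these same arrays, its size in subsets of them is a description as well. Cav3.1 KO replicates 2 and 3 had the highest mean of thalamus and habenula markers, through Prkcd and Tac2. Without these arrays the Bok difference was -0.67 and missed the threshold (limma adjusted p 0.0917), with 2 Cav3.1 KO arrays left.

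**Figure D2:**
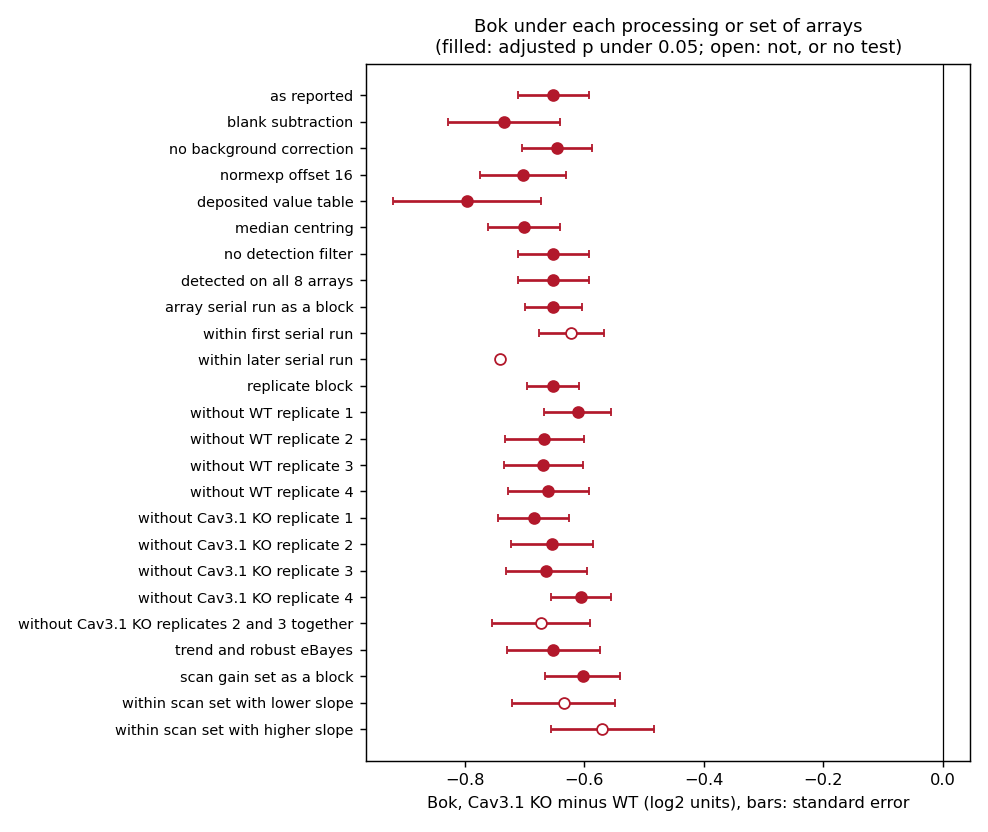
Difference of Bok between Cav3.1 KO and WT in log2 units with its standard error, under each processing, block or set of arrays. The values lie between -0.80 and -0.57, and open points mark settings without a test or with an adjusted p of 0.05 or more.

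Bok lies on chromosome 1, as does Bcl2. To show what sequence precedes the start of the member that differed, 250 bases upstream of the annotated start are printed for Bok, for Bak1 as the other measured effector, and for Bcl2 as the anti-apoptotic member on the same chromosome (RefSeq, GRCm38.p6, 5′ to 3′ on the gene's strand). Capitals mark GGGCGG, the Sp1 box, or its reverse complement CCGCCC.
Bok (chr1:93685325-93685574, plus strand): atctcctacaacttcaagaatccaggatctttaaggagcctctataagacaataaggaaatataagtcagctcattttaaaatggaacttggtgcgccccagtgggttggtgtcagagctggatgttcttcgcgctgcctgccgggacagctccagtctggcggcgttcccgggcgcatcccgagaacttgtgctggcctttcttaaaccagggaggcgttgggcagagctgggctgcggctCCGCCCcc
Bak1 (chr17:27028628-27028877, minus strand): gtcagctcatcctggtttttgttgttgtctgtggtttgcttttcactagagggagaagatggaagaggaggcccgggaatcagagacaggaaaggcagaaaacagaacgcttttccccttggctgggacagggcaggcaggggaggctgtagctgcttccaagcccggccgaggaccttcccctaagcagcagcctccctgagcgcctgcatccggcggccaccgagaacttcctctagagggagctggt
Bcl2 (chr1:106714291-106714540, minus strand): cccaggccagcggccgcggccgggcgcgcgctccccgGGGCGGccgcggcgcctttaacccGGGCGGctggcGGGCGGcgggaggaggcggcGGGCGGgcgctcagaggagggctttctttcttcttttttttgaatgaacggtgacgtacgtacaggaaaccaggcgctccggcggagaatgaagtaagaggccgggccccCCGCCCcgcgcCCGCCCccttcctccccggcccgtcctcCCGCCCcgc

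The Bok window held 1 Sp1 box next to the start, the Bak1 window 0 and the Bcl2 window 7, and 32.7% of the 32851 annotated windows of this length held at least 1. GC content was 55.2% for Bok, 58.4% for Bak1 and 74.8% for Bcl2, against a median of 52.4% over all windows. CG dinucleotides numbered 12, 8 and 36 in the same order, against a median of 6. On either strand, 6 further motifs were searched, CACGTG (E-box, in 6.02% of windows), TGACGTCA (the cyclic AMP response element, 1.55%), TTTCCCGC and TTTGGCGC (E2F, 0.895% and 0.417%), TATAAA (12.4%) and the NRF1 palindrome (0.782%). These letters were in none of the 3 windows shown, which says only that they are not there. The array data do not measure binding at these sequences.

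Bak1, the partner of BAX in pore formation, read 5.84, 5.89, 5.98 and 5.82 in WT and 5.87, 5.86, 5.85 and 5.86 in Cav3.1 KO. The WT values enclosed all Cav3.1 KO values. Its difference was -0.03 (SE 0.0375, 95% interval -0.11 to 0.06, adjusted p 0.976, exact permutation p 0.657). The Bak1 spots were only 3.39 to 11.2 intensity units above the blank mean, and after blank subtraction the difference was -0.16 (SE 0.286), so a change of this gene could be missed at this brightness.

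Among the BH3-only genes, Bid encodes the protein that caspase-8 cleaves to link death receptors to mitochondria. It read 6.58, 6.82, 6.66 and 6.63 in WT and 6.85, 6.72, 6.79 and 6.898 in Cav3.1 KO. WT replicate 2 lay inside the Cav3.1 KO range and the other 3 WT arrays below it. The means were 6.67 ± 0.102 and 6.81 ± 0.077 (SD, n = 4), a difference of 0.14 (SE 0.0586, 95% interval 0.0086 to 0.28). It did not pass the test, with an adjusted p of 0.583 and an exact permutation p of 0.0857, where 4 against 4 arrays cannot go below 0.0286. Its value was positive in each of 24 alternatives, 23 of them with a test, between 0.11 and 0.29, the highest after blank subtraction. The alternatives reuse the same arrays, so the shared sign adds no separate support.

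Bad, whose protein is held inactive by survival kinases, read 9.19, 8.996, 9.09 and 9.11 in WT and 9.14, 9.20, 9.14 and 8.96 in Cav3.1 KO. The groups overlapped over nearly their whole range. Its difference was 0.01 (SE 0.0603, 95% interval -0.13 to 0.15, adjusted p 0.996). The dimmer second Bad probe gave 6.61 ± 0.0498 in WT and 6.68 ± 0.0894 in Cav3.1 KO (SD, n = 4), a difference of 0.07 (SE 0.0484, adjusted p 0.845). Neither probe passed the test.

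Bcl2l11 encodes BIM, a BH3-only protein that binds all the anti-apoptotic members. Its probe read 5.79, 5.86, 5.79 and 5.82 in WT and 5.78, 5.79, 5.75 and 5.81 in Cav3.1 KO. The spots were 1.18 to 6.39 intensity units above the blank mean, and 3 WT and 2 Cav3.1 KO arrays passed as detected. The difference was -0.03 (SE 0.0277, adjusted p 0.922) on the normalised scale and -0.65 (SE 0.36, adjusted p 0.782) after blank subtraction. In the authors' deposited table Cav3.1 KO replicate 3 is empty for this probe, and the fit on those values dropped it, with a difference of -0.28 (SE 0.22, adjusted p 0.858). At this brightness a change in Bcl2l11 was not detectable with any precision.

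The anti-apoptotic genes showed no difference that passed the test. Mcl1, whose protein turns over fast and is needed for the survival of many neurons, read 9.48, 9.40, 9.33 and 9.59 in WT and 9.36, 9.77, 9.73 and 9.48 in Cav3.1 KO. Cav3.1 KO replicates 2 and 3 lay above all WT arrays, and replicates 1 and 4 lay among them. The difference was 0.14 (SE 0.1, 95% interval -0.09 to 0.37, adjusted p 0.879, exact permutation p 0.286). Replicates 2 and 3 also had the highest mean of thalamus and habenula markers, at 7.17 and 7.18 against 6.43 to 6.80 on the other 6 arrays. Of that list Prkcd (9.005 and 9.18) and Tac2 (8.82 and 8.63) were highest on these arrays. Lef1, Gbx2, Nwd2, Pou4f1 and Ntng1 were highest on other arrays, and Prkcd was also high on WT replicates 1 and 2 (8.66 and 8.62). The part of tissue content in the Mcl1 values of Cav3.1 KO replicates 2 and 3 was not tested. Without both arrays the Mcl1 difference was -0.03 (SE 0.0792).

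Bcl2l2, which encodes BCL-W, an anti-apoptotic protein of neurons, read 9.33, 9.33, 9.26 and 9.43 in WT and 9.69, 9.45, 9.30 and 9.28 in Cav3.1 KO. Cav3.1 KO replicate 1 was the highest and replicates 3 and 4 lay within the WT range. The difference was 0.10 (SE 0.0895, 95% interval -0.11 to 0.30, adjusted p 0.937). It was 0.0081 without Cav3.1 KO replicate 1 and 0.21 (SE 0.0702, adjusted p 0.398) with the scan set as a block.

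Bcl2l1 encodes BCL-XL, the main anti-apoptotic protein of mature neurons. It read 6.73, 6.84, 6.67 and 6.74 in WT and 6.75, 6.75, 6.81 and 6.70 in Cav3.1 KO. All Cav3.1 KO values lay inside the WT range. The difference was 0.0071 (SE 0.0408, 95% interval -0.09 to 0.10, adjusted p 0.997), which on this scale bounds the ratio of Cav3.1 KO to WT between 0.942 and 1.07.

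Bcl2, the founding member of the family, was read by 2 probes that the annotation pairs with different transcript records. The brighter probe read 6.44, 6.46, 6.49 and 6.51 in WT and 6.48, 6.47, 6.31 and 6.48 in Cav3.1 KO. Cav3.1 KO replicate 3 stood below the 7 other arrays, which lay close together. The difference was -0.04 (SE 0.043, 95% interval -0.14 to 0.06, adjusted p 0.963), and it was 0.0028 without that array. The dimmer probe gave 5.98 ± 0.0455 in WT and 5.98 ± 0.037 in Cav3.1 KO (SD, n = 4), with a difference of -0.0027 (SE 0.0324, adjusted p 0.998).

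**Figure D3:**
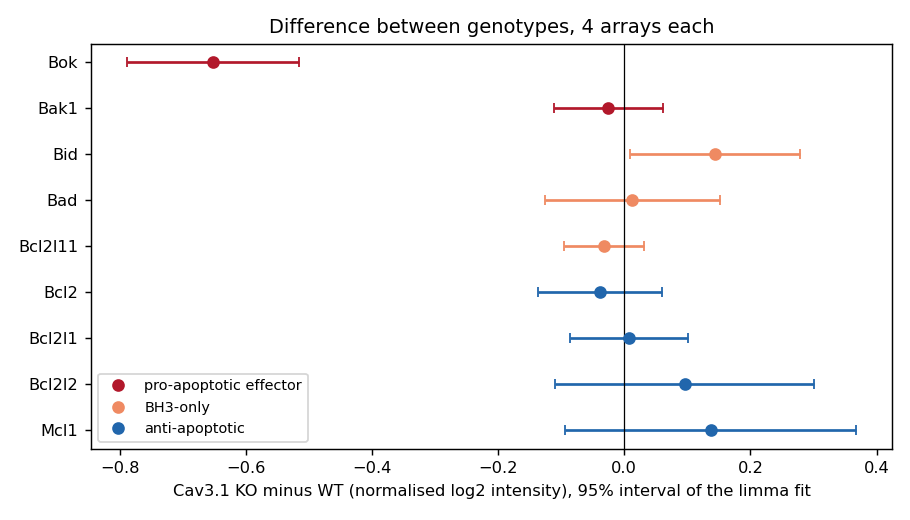
Difference between Cav3.1 KO and WT in normalised log2 intensity for the 9 members, with the 95% interval of the limma fit over 4 arrays a group, coloured by role. The interval of Bok runs from -0.79 to -0.52, that of Bid from 0.0086 to 0.28, and the other 7 include 0.

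The genes around the family were read from 7 lists of 60 genes, of which 48 had a probe and 46 passed the detection filter. By limma 0 of the 46 passed over all probes, and 5 (10.9%) had an unadjusted p under 0.05 against 8.1% of all probes. Of the 46, 30 were higher and 16 lower, with a median difference of 0.01, where 50.7% of all probes were lower. The medians of some of these lists changed sign under median centring, so no shift of the lists is read from this count. Some genes named below had groups without overlap, which 4.95% of all probes had as well.

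Of the other BH3-only genes 4 were tested, all 4 higher and 0 called. Pmaip1, which encodes NOXA, a p53-induced protein that binds MCL-1, read 5.97 ± 0.0615 in WT and 6.21 ± 0.0358 in Cav3.1 KO (SD, n = 4). Its groups did not overlap, and the 0.24 difference (SE 0.0367) missed the threshold at a limma adjusted p of 0.0609. The exact permutation p of 0.0286 is what any gene without overlap gives with 4 against 4 arrays. The Pmaip1 spots were only 7.48 to 22.8 intensity units above the blank mean, where differences on this scale are understated. After plain subtraction of the blank mean, the Cav3.1 KO mean of Pmaip1 was 200.7% of the WT mean (20.5 against 10.2 intensity units). Bbc3, which encodes PUMA, differed by 0.01 (SE 0.0496, adjusted p 0.996). Of the further Bcl-2 relatives 7 were tested and 0 called, with differences of -0.03 to 0.05. Bcl2l14 differed by -0.03 (SE 0.0268) and Bcl2l13, a mitochondrial receptor for autophagy, by 0.03 (SE 0.037).

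Downstream of the membrane step, 7 genes of the apoptosome, the caspases and the factors released from mitochondria were tested and 0 called, 4 higher and 3 lower. Casp9, the initiator caspase activated on the apoptosome, differed by 0.04 (SE 0.0232, adjusted p 0.838) and the executioner caspase gene Casp6 by -0.08 (SE 0.0562, adjusted p 0.862). Of 8 caspase inhibitor genes 0 were called. Birc2, which encodes the ubiquitin ligase cIAP1, differed by -0.12 (SE 0.0555, adjusted p 0.66) and Naip5 by 0.08 (SE 0.0492, adjusted p 0.832), a gene with close copies that its probe may also detect.

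In the death receptor arm, which reaches mitochondria through Bid, 9 genes were tested, 2 were higher, 7 lower and 0 called, and 3 had an unadjusted p under 0.05. The adaptor gene Tradd differed by -0.08 (SE 0.0274, adjusted p 0.459) and its groups did not overlap. Fas, the receptor itself, differed by 0.24 (SE 0.0888, adjusted p 0.499), with 6.897 ± 0.154 in WT and 7.14 ± 0.129 in Cav3.1 KO (SD, n = 4).

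Genes for proteins that bind or degrade BOK did not pass the test either. Of 6 such genes 4 were tested, 3 higher and 1 lower. Itpr3, an inositol trisphosphate receptor of the endoplasmic reticulum, read 6.57 ± 0.0296 in WT and 6.69 ± 0.0602 in Cav3.1 KO (SD, n = 4). Those groups did not overlap, and the adjusted p of the 0.11 difference (SE 0.0353) was 0.371. Vcp, the ATPase that extracts proteins for degradation, differed by 0.08 (SE 0.0514, adjusted p 0.853). Among 7 genes for membrane partners of BAX and BAK 0 were called, with Vdac2, the channel that holds BAK at mitochondria, at 0.17 (SE 0.0797, adjusted p 0.66) and Vdac3 at 0.16 (SE 0.0762, adjusted p 0.683).

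**Figure D4:**
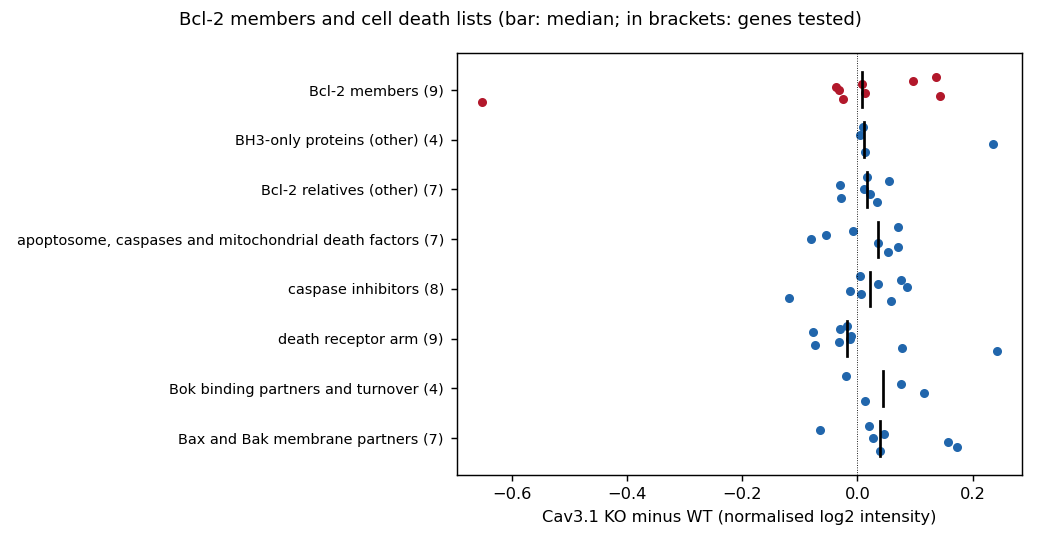
Difference between Cav3.1 KO and WT in normalised log2 intensity for the 9 Bcl-2 members (red) and 46 genes of 7 related lists (blue), 1 point a gene, with a bar at each median. On this scale, which understates differences of dim probes, the Bok point lies at -0.65 and the others between -0.12 and 0.24.

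The genes next to Bok on chromosome 1 were read to see whether its neighbourhood differed. Of 5 measured genes on each side 0 were called, where 0.288% of all probes were, so 0 calls among so few genes says little. Of these neighbours 6 were higher and 4 lower, with a median of 0.0048 and a range of -0.09 to 0.12. The nearest measured neighbours were Stk25, at 0.01 (SE 0.0756, adjusted p 0.998), and Thap4, at 0.0036 (SE 0.078, adjusted p 0.998). Farp2, named after its values were seen as the 1 neighbour with an unadjusted p under 0.05, differed by 0.12 (SE 0.0291, limma adjusted p 0.206). Its groups did not overlap, as for 4.95% of all probes.

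Markers of the cell types in the dissection were set beside Bok by array. Of 13 marker lists, the means of 12 overlapped between the groups. The exception was the list of mature granule neurons, which make up the granule cell layer. Its means spanned 7.02 to 7.10 over WT arrays and 6.89 to 6.997 over Cav3.1 KO arrays, with 9 of its 12 genes lower and a median difference of -0.04. Within it C1ql2, a synaptic protein gene of mossy fibres, was lower by the test (-0.57, adjusted p 0.0065), Trpc6 had -0.57 (adjusted p 0.104), and Calb1, the calcium buffer calbindin, had 0.34 (adjusted p 0.523). The separation of the list means leans on C1ql2, the 1 gene of the list past the threshold. Groups without overlap occurred in 4.95% of all probes as well, so 1 list of 13 says little. The list's correlation with Bok was 0.757 over the 8 arrays, which differ by genotype, and -0.626 over deviations from the group means. CA3 pyramidal neuron markers ran from 6.82 to 6.91 in WT and from 6.70 to 6.89 in Cav3.1 KO. Oligodendrocyte markers ran from 10.1 to 10.3 in WT and from 9.78 to 10.4 in Cav3.1 KO, with 8 of 9 genes lower and 0 called. Microglia markers ran from 7.96 to 8.16 in WT and from 7.92 to 8.05 in Cav3.1 KO, with 8 of 8 genes lower and 0 called. Over all probes 50.7% were lower. The microglia list had a correlation with Bok of 0.664 over the 8 arrays and 0.206 over deviations from the group means. Endothelial markers had a correlation with Bok of 0.568 over the 8 arrays and -0.566 over deviations from the group means. Of these markers 4 of 8 were lower, among them the tight junction gene Cldn5, which was lower by the test (-0.79, limma adjusted p 0.0182). Of the 13 lists, choroid plexus markers had the highest correlation with Bok over deviations from the group means (0.616), and 0.373 over the 8 arrays. Their means also spread most, from 7.35 to 8.86 in WT and from 6.42 to 8.75 in Cav3.1 KO, with 5 of 6 genes lower and 0 called. Hilar mossy cell markers, with 6 of 7 genes higher and 0 called, had -0.636 over the 8 arrays and 0.378 over deviations. The part of tissue content in the Bok difference was not tested.

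The genes whose values were most like those of Bok were ranked over 17588 probes with an established symbol. Over the 8 arrays the highest Pearson correlations were those of Rps6kb2, a ribosomal protein S6 kinase (0.991), the chemokine gene Ccl21d (0.975), the complement receptor gene C3ar1 (0.963), and the histone genes H2bc6 (0.959) and H2bc11 (0.955). Ccl21d and the histone genes have near-identical copies that their probes may also detect. A gene that separates the genotypes gains such a correlation from that alone. Rps6kb2 differed by only -0.06 (SE 0.0211), from 6.75 ± 0.00905 to 6.68 ± 0.0094 (SD, n = 4), and Ccl21d by -1.03. Over deviations from the group means the highest were Abhd4 (0.985), an N-acyl phospholipid lipase gene, Sytl3 (0.974) and Gstt2 (0.972). Abhd4 ordered the 8 arrays as Bok did (Spearman 1), with a difference of -0.12 (adjusted p 0.484). Over the 8 arrays, the other family members had correlations with Bok from -0.746 (Bid) to 0.38 (Bcl2l11). Over deviations from the group means the order was another one, with Bad highest (0.813), then Bcl2l2 (0.556), and Bcl2l11 lowest (-0.621), while Bid was at -0.519. All of these rest on 8 points that share arrays and brightness. The top genes are the extremes of a search over 17588 probes, so no link to Bok is read from their high values.

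**Figure D5:**
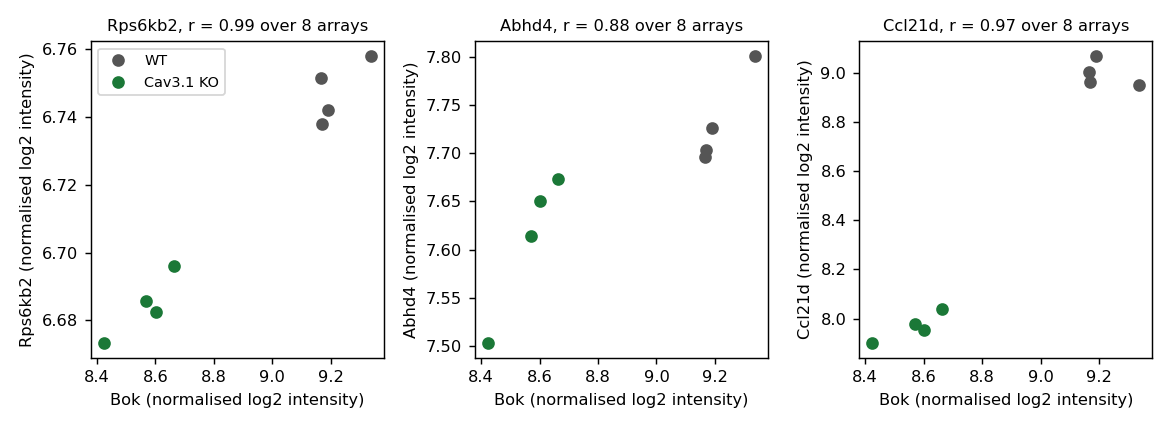
Normalised log2 intensity of Rps6kb2, Abhd4 and Ccl21d against that of Bok on 4 WT arrays (grey) and 4 Cav3.1 KO arrays (green). For Rps6kb2 and Ccl21d the 2 groups form separate clouds, and Abhd4 keeps the order of Bok on all 8 arrays (r = 0.877).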

How the data were processed

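Arrays were grouped by the genotype in the labels. Per the file headers, the scanner files hold a median spot intensity at 635 nm, not normalised, from scans at 3 gains, and how these were merged is not given in the sources used. The column headed as background followed its own spot (r of logarithms 0.994 to 0.996) and was not subtracted. The value table deposited by the authors holds linear intensity scaled to a median of 25, and served as an alternative. From the spot intensities, normexp with an offset of 50 and quantile normalisation gave log2 values. A probe was detected if above the 95th percentile of blank spots, and 21150 of 23473 probes, detected on at least 4 arrays and flagged at no gain, were tested with limma 3.58.1 (R 4.3.3, lmFit and eBayes, group means), Benjamini-Hochberg adjusted over all of them at 0.05. Exact permutation tests were two-sided over 70 arrangements. The fit was tested on simulated data.

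The members, lists, motifs and naming rule were chosen with earlier results of these data known. The rule named all members, the nearest neighbours of Bok and the genes most correlated with it. Of each list around the family it named up to 2 genes with the smallest unadjusted p. Lists used the brightest tested probe of a gene, and of the listed genes those without a probe were not analysed here. The number of arrays limits the precision. Replicate numbers are shared by the groups, but same-numbered arrays did not deviate together (correlations -0.115 to 0.0109), so they were not taken as pairs. The split by scan slope was added after seeing the files.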

Additional observations from a re-analysis of the deposited data

Results flagged for a closer look

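Among 20 groups of 4 arrays (the 9 members and Cacna1g in each genotype), 2 held an array set apart from the other 3 by Dixon's test, where chance flags about 5% of groups. Bok on WT replicate 1 read 9.34, against 9.17 to 9.19 on the other WT arrays. Without it the Bok difference was -0.61. Bcl2 on Cav3.1 KO replicate 3 read 6.31, against 6.47 to 6.48 on the other Cav3.1 KO arrays.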

How the results depend on the processing

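The alternatives reuse the arrays on which Bok was chosen, so its counts and adjusted p here are a description and not a test. Bok was lower in Cav3.1 KO in 24 of 24 alternatives and passed the threshold in 19 of the 23 with an adjusted p. Its differences ran from -0.80 (the deposited value table) to -0.57. It missed the threshold within the first run of array serial numbers, 3 against 3 arrays (-0.62), without Cav3.1 KO replicates 2 and 3 together (-0.67), and within the scan sets, where a lone array was assumed to vary like the others (-0.57 with the higher slope, -0.63 with the lower). Each of these 4 fits had fewer arrays. Over all 21150 probes, 7 (0.0331%) were called within the first run and 17 (0.0804%) without Cav3.1 KO replicates 2 and 3. The count of 0 members in those fits is therefore not particular to the family. The later serial run, 1 array a group, gave values with no test. With the replicate block Bok had -0.65 and passed (adjusted p 0.0492), while the calls over all probes fell from 61 to 8, next to 44 with the serial run as a block, 36 with median centring, 81 with trend and robust eBayes, and 16 to 49 with 1 array left out. No other member was called under any alternative with a test. Bid and Bcl2l2 were positive in all 24, which reuse the same arrays and so are no separate support. Other members changed sign, and the cause was not tested. Under the deposited value table Bad was -0.0537 and Bcl2l1 -0.0437, and under median centring -0.0406 and -0.0082. Within the first run Bak1 was 0.0085 and Bcl2l1 -0.0005, and in the later run Bad was -0.13, Bcl2l11 0.0233 and Bak1 -0.13. Without Cav3.1 KO replicates 2 and 3, Bad was -0.0484, Bcl2 0.0061, Bcl2l1 -0.021 and Mcl1 -0.03. In the set with the higher slope Bak1 was 0.0184, Bcl2 0.0063, Bcl2l1 -0.0216 and Mcl1 -0.13, where Mcl1 was 0.33 in the set with the lower slope. With 1 array left out, Bad ran from -0.0211 to 0.0623, Bak1 from -0.0459 to 0.0084, Bcl2l1 from -0.0181 to 0.0375 and Bcl2 from -0.0542 to 0.0028. Median centring moved the median of Bok's partners from 0.04 to 0.0096. It turned the sign of the medians of the apoptosome list (0.04 to -0.0333), the BAX and BAK partners (0.04 to -0.0249) and the neighbours of Bok (0.0048 to -0.0174). Bak1 and Bcl2l11 lay close to blank spots, which limits what they can show.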
